A study of Danio rerio with 70 samples.

Results

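The proteasome is the protease that destroys proteins tagged with ubiquitin. Its genes were followed here across 13 groups of zebrafish libraries: healthy thymus, healthy thymocytes, thymocytes before leukaemia, and acute leukaemias of T-cell type (T-ALL). Members were all genes whose symbol begins with psma, psmb, psmc, psmd, psme, psmf or psmg and a digit, ignoring case. The immune and thymus forms psmb8 to psmb13 and the recombination factor psmc3ip were left out. This gave 51 of the 35117 genes counted, all 51 were tested in every comparison, and 50 had at least 1 read in every library. Symbols are printed as the gene table gives them, some in the human style.

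The core particle of the proteasome is a barrel of stacked rings. The outer rings of alpha subunits (PSMA genes) gate the entrance, and the inner rings of beta subunits (PSMB genes) carry the cutting sites, which lie on PSMB5, PSMB6 and PSMB7. The regulatory particle sits on the barrel: its ATPases (PSMC genes) unfold the substrate, and its non-ATPase subunits (most PSMD genes) hold, receive and deubiquitinate it. Dedicated chaperones (PSMG genes, PSMD5, PSMD9 and PSMD10) put these pieces together. Alternative caps (PSME genes) open the core without ubiquitin, and PSMF1 binds and can inhibit it. Subunit genes are known to be expressed in common, and dividing cells depend strongly on the complex. In lymphoid tissue part of the beta subunits is exchanged for immune forms, and the cortical epithelium of the thymus uses a form of its own.

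The 51 members fell into 10 alpha subunits, 7 beta subunits, 7 ATPases, 14 non-ATPase subunits, 6 assembly chaperones, 6 caps and inhibitors, and PSME3IP1, a protein that binds PSME3 and is not a subunit. Several symbols stand for more than 1 gene model. PSMA6 is carried by ENSDARG00000013966 and ENSDARG00000019398, PSMD11 by ENSDARG00000005134 and ENSDARG00000060150, PSMD2 by ENSDARG00000099653 and ENSDARG00000103190, and PSME4 by ENSDARG00000018742 and ENSDARG00000087911. The RefSeq gene table lists a single psmd2, so how reads were divided between the PSMD2 models is uncertain, and the same caution holds for the other pairs. PSMA8 is listed there as a synonym of psma7.

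Poly-A RNA was sequenced in 2 laboratories. The Speleman laboratory supplied 6 libraries of dissected thymus from Tg(rag2:GFP) fish, titled AB, 1 of them with several numbers in its title where the others have 1. It also supplied 2 primary T-ALL of genotype Tg(rag2:hTLX1; rag2:GFP), called TLX1 tumours, and 4 of the same genotype with phf6+/-. From 4 of these tumours came 12 transplants into Rag2-/- fish, 6 of each genotype, 2 of them passed on from an earlier transplant. Such hosts lack mature T and B cells but keep their other blood and tissue cells. In those lines the rag2 promoter, active in lymphoid precursors, drives the human TLX1 oncogene and GFP. The Frazer laboratory supplied GFP-positive sorted thymocytes of healthy Tg(lck:GFP) fish (5 libraries), and of preleukemic hulk (3), otg (4) and shrek (2) mutants that carry the same reporter. It further supplied preleukemic Tg(rag2:hMYC), Tg(lck:GFP) fish, called hMYC (3), and sorted T-ALL cells from hulk (9), otg (10) and shrek (10) fish with advanced leukaemia. All Frazer fish share the lck:GFP reporter, whose promoter marks T cells. No ages are given in the labels, and nothing in them says which libraries came from separate fish, so the p-values measure the spread between libraries, which may in part be technical.

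Reads counted in genes ranged from 23730828 to 41393446 in the Speleman libraries and from 8676867 to 56471528 in the Frazer libraries. Levels are CPM, reads of a gene relative to all gene reads of its library, scaled by the trimmed mean of M-values (TMM) within each laboratory, so that levels are compared only within a laboratory and never between genes. Of the 16 genes in the T-cell marker list, none was at 0 in all libraries of any group. Their summed level was 5090 to 6290 CPM in dissected thymus, 4420 to 9630 CPM in sorted thymocytes and 2700 to 23000 CPM in the Frazer tumours. Dissected thymus was labelled as thymocytes but held other tissue: 9 thymic epithelium markers summed to 813 to 1080 CPM there. In the 2 TLX1 tumours they summed to 26.7 to 33.5 CPM, with foxn1, DLK2 and PSMB11 at 0. In the 4 phf6 heterozygous tumours the sum was 14.5 to 81.1 CPM, and no marker was at 0 in all of them. Mitochondrially encoded genes took 61.4% of reads in hulk tumour 2, 25% in hulk tumour 1 and 22% in thymocyte library 3. The healthy sorted thymocytes were deposited in a table separate from all other Frazer libraries, so tissue and table cannot be told apart in any comparison with them.

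Before any scaling beyond depth, the 51 genes together took a mean of 0.347% ± 0.0781 of gene reads in sorted thymocytes (SD, n = 5). The share was 0.593% in preleukemic shrek thymocytes, the highest mean among the Frazer groups, and 0.278% in preleukemic hMYC thymocytes, the lowest. Tumours of hulk, otg and shrek had means of 0.472%, 0.423% and 0.395%. In the Speleman libraries the healthy tissue had the higher share: dissected thymus averaged 0.786% ± 0.0458 (SD, n = 6), TLX1 tumours 0.42% and phf6 heterozygous tumours 0.376%. Such shares fall when other genes take more of the reads. Ribosomal protein genes took 16.8% to 23.4% of reads in thymus and 36.5% to 51.7% in the primary TLX1 tumours. Without mitochondrial and ribosomal protein reads the mean share was still highest in thymus, at 1.02%. It was 0.803% in TLX1 tumours and 0.779% in phf6 heterozygous tumours. The part of ribosomal reads in the difference was not tested. In these bulk samples, fewer cells of a type and less RNA per cell cannot be told apart.

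**Figure D1:**
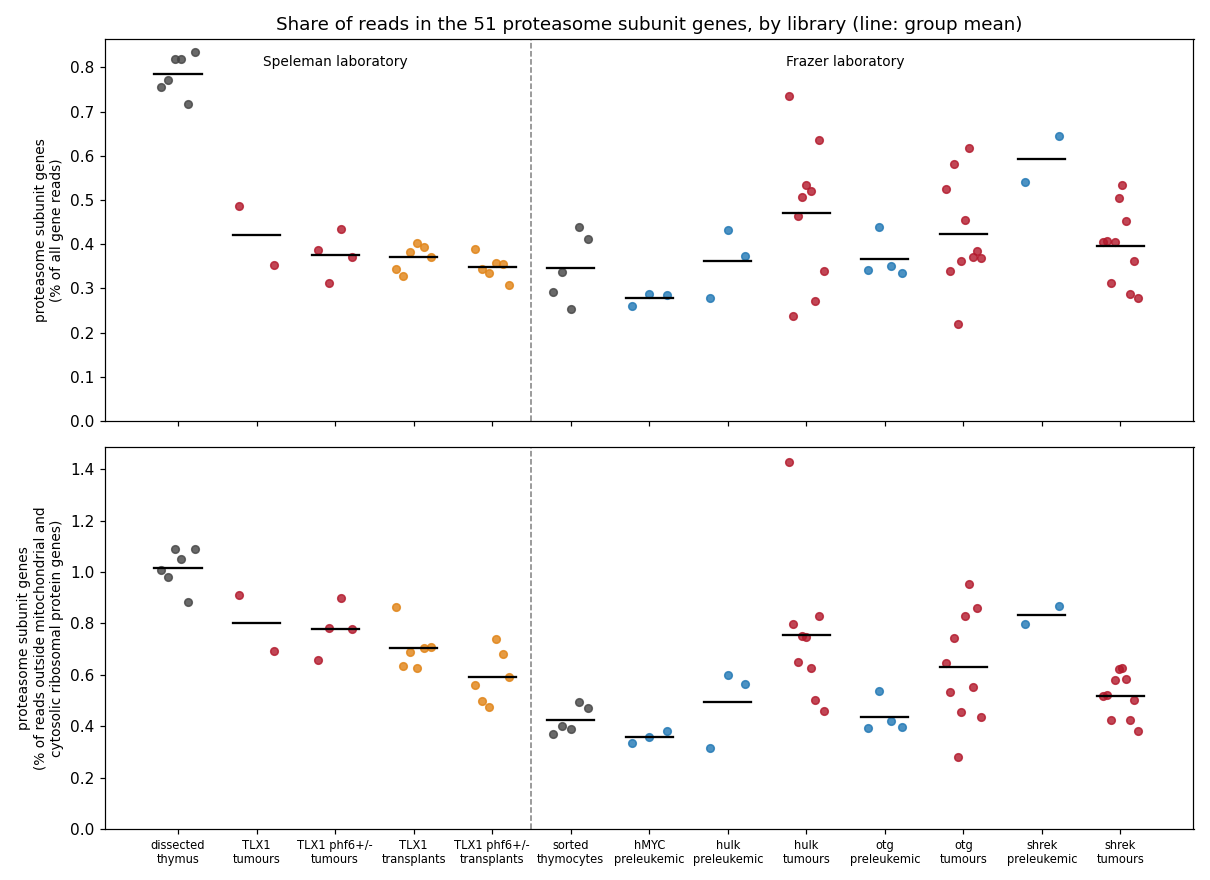
Share of reads in the 51 proteasome subunit genes by library (each point 1 library, lines the group means), as percent of all gene reads (upper panel) and as percent of reads outside mitochondrial and cytosolic ribosomal protein genes (lower panel). Dissected thymus lies highest in the upper panel, at a mean of 0.786%, and among the Frazer groups preleukemic shrek thymocytes have the highest mean in both panels, 0.593% and 0.833%.

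The first question was how thymocytes of each leukaemia-prone line differ from healthy thymocytes before disease. Preleukemic shrek thymocytes had higher levels of nearly the whole complex. PSMA1, an alpha subunit, measured 352 and 364 CPM in the 2 shrek libraries and 103, 104, 90.2, 132 and 97.6 CPM in healthy thymocytes. PSMB2, a beta subunit without a cutting site, measured 231 and 239 CPM against 55.4, 61.9, 58, 71.4 and 63.2 CPM. PSMD14, the deubiquitinase of the regulatory particle, measured 132 and 125 CPM against 37, 41.8, 38.5, 52.7 and 39.3 CPM. In none of these genes did the shrek and healthy values overlap. The shrek group held only 2 libraries and PSMB2 was picked by its large change, so the lack of overlap adds no support.

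By edgeR's quasi-likelihood test with Benjamini-Hochberg adjustment over all genes, 43 of 51 members rose and 2 fell at adjusted p under 0.05. Over all 19531 genes tested, 17.3% rose and 20.7% fell. The median log2 fold change of the members was 1.45, against -0.27 over all genes. All 10 alpha subunits, all 7 beta subunits, all 7 ATPases and all 6 assembly chaperones rose. Of the 14 non-ATPase subunits 9 rose and 1 fell, and of the 6 caps and inhibitors 3 rose and 1 fell. PSME3IP1 rose as well. The largest log2 fold change was that of PSMB2, 1.92 (SE 0.305, adjusted p = 0.000408). PSMA4, another alpha subunit, rose by 1.91 (SE 0.316, adjusted p = 0.000492), and the ATPase PSMC2 by 1.80 (SE 0.281, adjusted p = 0.000378). The cutting subunits rose as well, PSMB5 by 1.69, PSMB6 by 1.71 and PSMB7 by 1.64.

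The caps did not move as a block. PSME1, part of the cap that goes with immune forms, rose by 1.35 (adjusted p = 0.00347), while its partner PSME2 had a log2 fold change of 0.37 (adjusted p = 0.394). PSME3, the nuclear cap, rose by 0.98 (adjusted p = 0.0136). The inhibitor PSMF1 measured 53.3 and 45.8 CPM against 14, 20.6, 14.3, 12.3 and 14.2 CPM in healthy thymocytes, and rose by 1.71 (SE 0.403, adjusted p = 0.00395). PSME4, a large cap, went the other way in its ENSDARG00000018742 model: 39.5 and 38.4 CPM against 61.2, 77.3, 51.6, 106 and 81.7 CPM, a fall of 0.96 (SE 0.247, adjusted p = 0.00658). The second member that fell was PSMD2 ENSDARG00000103190, a scaffold of the regulatory particle, by 1.40 (SE 0.536, adjusted p = 0.0485), at 11.9 and 18.6 CPM. Healthy thymocytes spread from 10.6 to 72.7 CPM in that gene and overlapped the shrek values. The other PSMD2 model had a log2 fold change of 0.22 (adjusted p = 0.624), and neither PSMD11 model passed.

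Pairs of related genes with both copies called were 4: PSMA2 rose by 1.70 and psma2a by 1.41, PSMC1 by 1.72 and psmc1b by 1.47, PSMD4 by 1.72 and psmd4b by 1.19, and the PSMA6 models by 1.71 and 1.65.

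The shrek group held only 2 libraries, the deepest of the laboratory at 56471528 and 47598816 reads, where the next deepest had 19537019. The count of called members stayed between 36 and 46 when each library of the comparison was left out in turn, and was 36 with library size alone as the scaling (33 higher and 3 lower). To avoid the separate table of the healthy thymocytes, preleukemic shrek was also set against preleukemic otg, which shares its table. This contrast was added after the counts had been seen. It reuses the same 2 shrek libraries. Preleukemic otg had already been found near healthy thymocytes in these genes, with a median log2 fold change of -0.02 and 0 called. A similar count was therefore to be foreseen and is not separate support. Preleukemic hulk and hMYC share that table too and were not set against shrek. There 43 members were higher and 2 lower in shrek, against 18.4% and 18.1% of all genes. The macrophage list summed to 821 to 968 CPM in preleukemic shrek and 422 to 947 CPM in healthy thymocytes, and the thymic epithelium list to 31.4 to 67.2 CPM and 24 to 331 CPM. T-cell markers summed to 9560 to 10700 CPM in preleukemic shrek and 4420 to 9630 CPM in healthy thymocytes. The part of cell makeup in the result was not tested.

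The other preleukemic groups looked different. None of the 51 members passed in preleukemic otg, where 1.75% of all genes rose and 3.58% fell. At an unadjusted p under 0.05 the count was also 0, as it was by DESeq2. PSMA1 measured 97, 134, 104 and 98.8 CPM there, within the healthy range but for 1 library slightly above it. None passed in preleukemic hMYC, where 8.61% of all genes rose and 11.3% fell, 5 members passing without adjustment and 2, both lower, by DESeq2. In preleukemic hulk, PSMF1 alone passed, at 9.56, 57.7 and 47.5 CPM (log2 fold change 1.36, SE 0.368, adjusted p = 0.0474). Over all genes 2.24% were higher and 1.54% lower, so the members' share was near the background. Hulk library 1 stood below the other 2: PSMA1 measured 58.3 CPM there and 211 and 181 CPM in the others, and PSMB6 18.1 CPM against 74.8 and 67.1 CPM. Without library 1, 24 members were called, 22 higher and 2 lower. Without hulk library 2 or 3, or thymocyte library 1, 2, 4 or 5, none were called, and without thymocyte library 3 there were 4. For hMYC, leaving out thymocyte library 3 gave 1 called member.

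**Figure D2:**
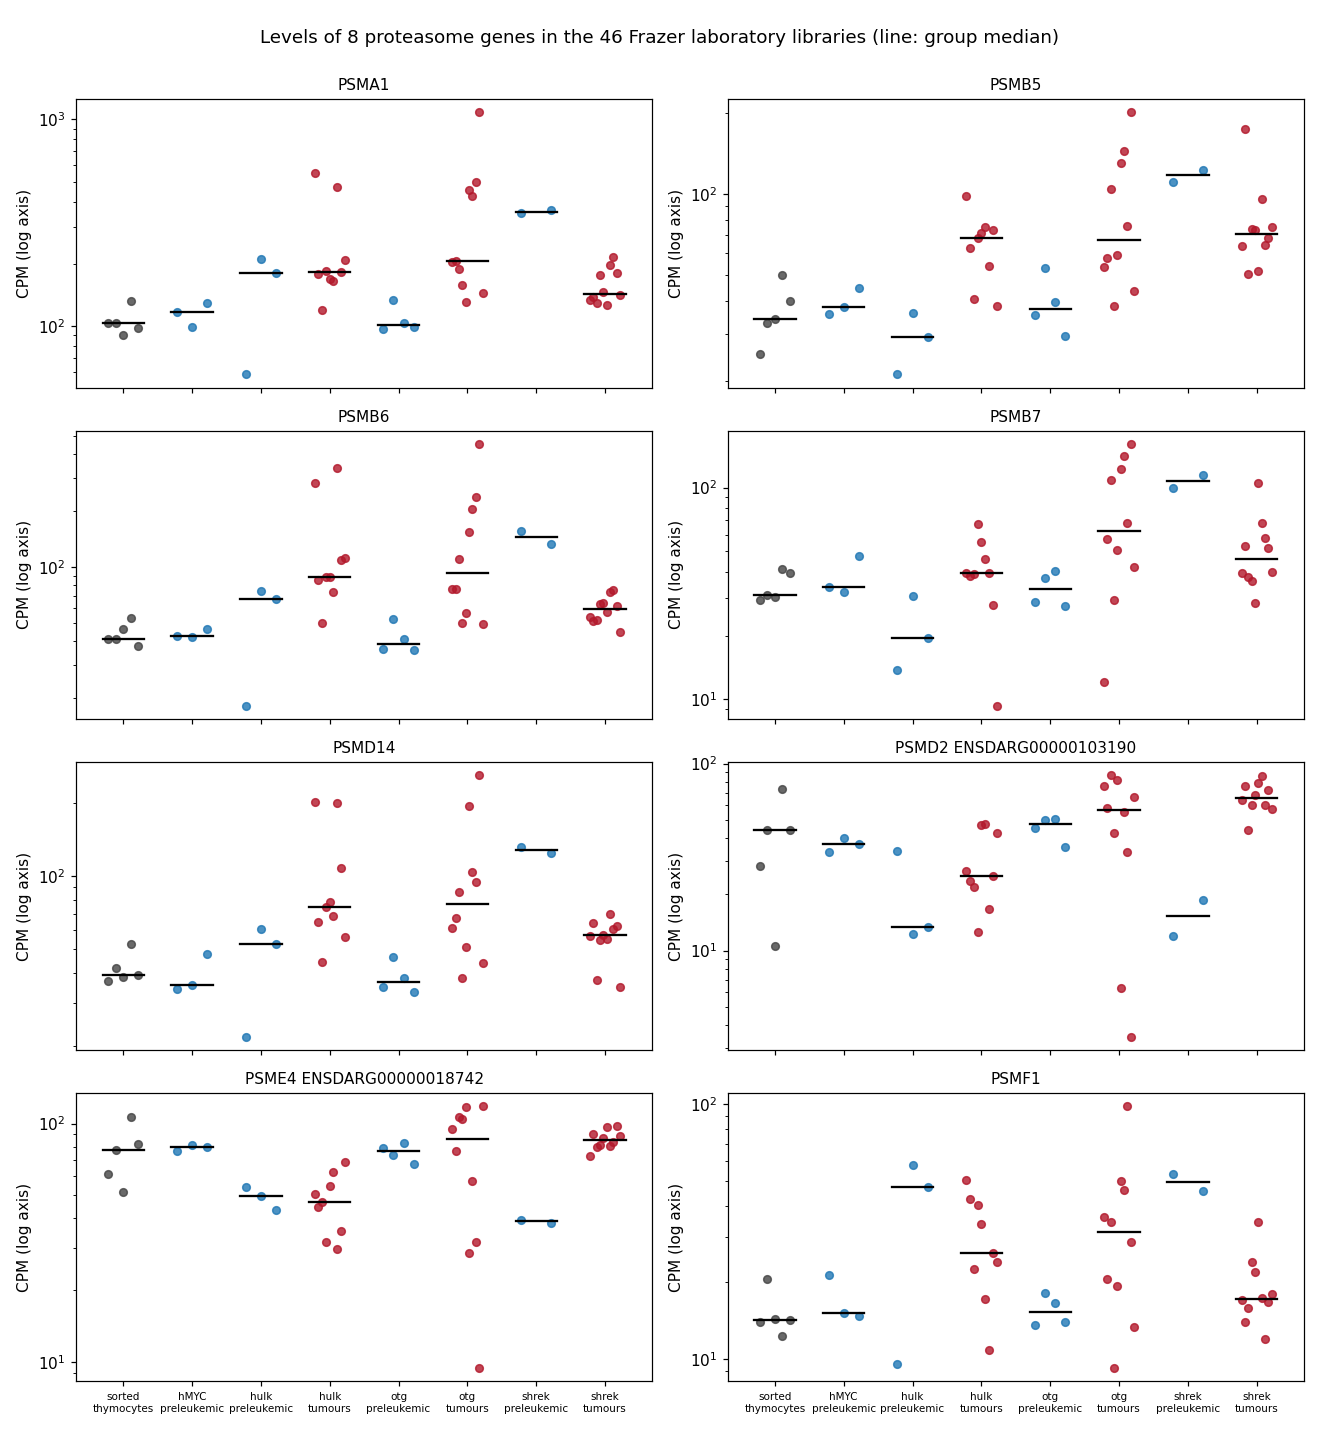
Levels of 8 proteasome genes (TMM-scaled CPM, log axes) in the 46 Frazer libraries by group; each point is 1 library and each line the group median. PSMA1, the cutting subunits, PSMD14 and PSMF1 lie above all healthy thymocytes in both preleukemic shrek libraries, and PSME4 ENSDARG00000018742 lies below all of them.

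The second question was how the tumours of each line differ from healthy thymocytes. All 3 comparisons share the same 5 healthy libraries. In otg tumours 36 members rose and none fell in the fit of all 46 Frazer libraries, against 12.8% of all genes higher and 15.1% lower. The median log2 fold change was 1.12 for the members and -0.04 over all genes. Core and ATPase genes made up most of the called members: all 10 alpha subunits, all 7 beta subunits and all 7 ATPases rose, against 6 of 14 non-ATPase subunits, 4 of 6 chaperones and 1 of 6 caps and inhibitors.

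PSMA1 ranged over the 10 otg tumours from 130 to 1080 CPM with a median of 206 CPM, and 9 of 10 lay above the highest healthy library, 132 CPM. Its log2 fold change was 1.73 (SE 0.404, adjusted p = 0.00174). PSMB2 ranged from 70.6 to 592 CPM with a median of 144 CPM, again with 9 of 10 above the healthy range of 55.4 to 71.4 CPM. It rose by 1.80 (SE 0.391, adjusted p = 0.000938). Both genes were picked by calls or large changes in these data, so the counts above the healthy range add no support. PSMG2, a chaperone that helps build the alpha ring, spread more widely still. It ranged from 23.4 to 413 CPM with a median of 88.7 CPM, overlapping healthy values of 28.6 to 44 CPM, and rose by 1.81 (SE 0.475, adjusted p = 0.00457).

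Of the cutting subunits, PSMB6 rose most, by 1.74 (SE 0.438, adjusted p = 0.0033), with PSMB5 at 1.32 (adjusted p = 0.00266) and PSMB7 at 1.21 (adjusted p = 0.0187). PSMD14 rose by 1.26 (adjusted p = 0.00976), and PSMF1 by 1.24 (adjusted p = 0.0161). PSME1, PSME2, PSME3 and both PSME4 models did not pass, with log2 fold changes of 0.65, 0.23, 0.32, -0.02 and -1.53. The count of called members stayed between 29 and 39 as single libraries were left out. It was 4 when otg and healthy libraries were fitted alone, with no other group lending its spread. Fits of that kind gave 30 in hulk and 10 in shrek, so the order of the lines by number of calls turned over. With library size alone 4 rose and 1 fell in otg. Under library size alone the median over all genes was -0.58 and that of the members 0.30.

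The otg tumours were unlike each other. Tumour 8 had the highest PSMA1 of all, 1080 CPM, and the lowest PSMD2 ENSDARG00000103190, 3.45 CPM, and PSME4 ENSDARG00000018742, 9.4 CPM. The last of these genes spanned 9.4 to 118 CPM among otg tumours. Tumour 8 also had a TMM factor of 0.319. The neutrophil list summed to 2.14 to 941 CPM over otg tumours, with a median of 40.1 CPM, against 14.6 to 108 CPM in thymocytes. Its part in the spread was not tested.

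In hulk tumours 18 members rose and none fell, against 8.47% and 5.19% of all genes, with a median log2 fold change of 0.87 for the members and 0.09 for all genes. Called were 6 alpha subunits, 2 beta subunits, 3 ATPases, 5 non-ATPase subunits and 2 chaperones. PSMB6 ranged from 50.4 to 337 CPM over 9 tumours with a median of 88.9 CPM. Of these, 8 of 9 exceeded the highest healthy library, 53.1 CPM, and the log2 fold change was 1.63 (SE 0.44, adjusted p = 0.0136). PSMC1, an ATPase, ranged from 46.5 to 208 CPM with a median of 79.2 CPM, against 26.6 to 49 CPM, and rose by 1.30 (SE 0.294, adjusted p = 0.00506). PSMD10, a chaperone also known as gankyrin, rose by 1.62 (SE 0.494, adjusted p = 0.0261). It measured 207 CPM in hulk tumour 1 and 20.8 to 42.8 CPM in the other tumours, overlapping the healthy range of 13 to 26.6 CPM. PSMB7 did not pass, at 9.33 to 67.2 CPM against 29.5 to 41.1 CPM (log2 fold change 0.23, SE 0.381, adjusted p = 0.734).

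Several libraries weighed on the hulk result. Without the 3 libraries above 20% mitochondrial reads, 3 members were called. Without hulk tumour 1 there were 10, and without thymocyte library 1, 2, 4 or 5 there were 8, 7, 10 and 10. Fitting hulk and healthy libraries alone gave 30, and library size alone gave 2. All of these calls were higher in hulk. The neutrophil list of 7 genes summed to 52.9 to 392 CPM in hulk tumours and 14.6 to 108 CPM in thymocytes. The liver list of 12 genes summed to 49.1 to 370 CPM, with a median of 128 CPM, against 0.996 to 226 CPM, with a median of 2.35 CPM. Their part in the result was not tested.

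In shrek tumours 4 members rose and none fell, against 8.53% and 21.7% of all genes, so the share that rose was near the background. The median log2 fold change was 0.44 for the members and -0.02 for all genes. PSMB5, the chymotrypsin-like cutting subunit and the main target of proteasome inhibitor drugs, ranged from 50.1 to 175 CPM with a median of 70.9 CPM. All 10 tumours lay above the highest healthy library, 49.7 CPM, and the log2 fold change was 1.12 (SE 0.32, adjusted p = 0.00679). PSMD5, a chaperone of the regulatory particle's base, rose by 0.98 (SE 0.323, adjusted p = 0.0184). The others were psmc1b at 0.77 (adjusted p = 0.0162) and PSME3IP1 at 0.76 (adjusted p = 0.0126). PSMB6 and PSMB7 did not pass, at 0.44 and 0.59. The count was 2 without thymocyte library 1, 10 with shrek and healthy libraries fitted alone, 2 by DESeq2, and 1 with DESeq2 size factors or library size alone.

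The third question was what separates tumours from preleukemic thymocytes of the same line, where both groups share a table. The otg tumours were again higher: 27 members rose and none fell, against 6.55% and 5.52% of all genes, with a median of 1.02 for the members and -0.01 for all genes. Called were 9 of 10 alpha subunits, all 7 beta subunits, 4 ATPases, 3 non-ATPase subunits, 3 chaperones and PSME3IP1. PSMB6 measured 36.6, 53, 41.2 and 36 CPM in preleukemic otg and 49.4 to 456 CPM in the tumours, a log2 fold change of 1.82 (SE 0.483, adjusted p = 0.0124). PSMB2 rose by 1.79 (SE 0.428, adjusted p = 0.00683), with 9 of 10 tumours above the highest preleukemic library. PSMF1 narrowly missed the threshold, at 1.19 (adjusted p = 0.0579). This count leaned on single libraries. It was 2, 15, 9 and 3 without preleukemic libraries 1, 2, 3 and 4, 16 without tumour 5 or tumour 8, 0 with library size alone and 0 with the 2 groups fitted alone.

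The shrek line went the other way. The 2 preleukemic libraries here are those that stood high against healthy thymocytes, so this result is not separate from that one. They held 56471528 and 47598816 reads, against 14247623 to 19537019 in the shrek tumours. From preleukemic thymocytes to tumours 15 members fell and 1 rose, against 9.25% and 6.12% of all genes, with a median of -0.93 for the members and 0 for all genes. PSMA2, an alpha subunit, fell from a mean of 111 CPM to 42 CPM, by 1.40 on the log2 scale (SE 0.384, adjusted p = 0.0111), all 10 tumours below both preleukemic libraries. PSMA6 ENSDARG00000019398 fell by 1.59 (SE 0.471, adjusted p = 0.0179), and the other PSMA6 model by 1.40 (adjusted p = 0.0376). PSMD9, a chaperone, measured 40.6 and 36 CPM against 6.26 to 17.3 CPM in tumours, and fell by 1.51 (SE 0.415, adjusted p = 0.0114). PSMD4, a ubiquitin receptor, fell by 1.28 (adjusted p = 0.00981), and PSMF1 by 1.37 (adjusted p = 0.0425). The cutting subunits did not pass, at -0.56 for PSMB5, -1.27 for PSMB6 and -1.05 for PSMB7.

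The member that rose was PSMD2 ENSDARG00000103190, from 11.9 and 18.6 CPM to 43.9 to 85.4 CPM over the tumours, by 2.12 (SE 0.7, adjusted p = 0.034). The second PSMD2 model had a log2 fold change of 0.51 (adjusted p = 0.487). With either preleukemic shrek library left out no member was called, and without tumour 008 or 011 there were 8 and 10. The count was 34 (2 higher and 32 lower) with the 2 groups fitted alone, 7 with DESeq2 size factors, 8 by DESeq2 and 3 with library size alone. Marker lists of other cell types had lower medians in shrek tumours than in preleukemic shrek, except the neutrophil list. Its median was 15.7 CPM in tumours and 9.61 CPM before. The 18 macrophage genes summed to 821 to 968 CPM before and 33.3 to 807 CPM in tumours, where MPEG1 was at 0. The 8 B-cell genes summed to 65.6 to 104 CPM and 3.94 to 71.4 CPM, the 9 thymic epithelium genes to 31.4 to 67.2 CPM and 4.05 to 21.5 CPM, and the 9 erythroid genes to 33.2 to 120 CPM and 5.26 to 38.8 CPM. Of the epithelium list, psmb11b and PSMB11 were at 0 in every tumour. DLK2 was at 0 in every tumour and already in both preleukemic libraries. The part of these cells in the result was not tested.

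Whether the change from preleukemic to tumour differs between the lines was tested directly, as a contrast added after those counts had been seen. It rests on the same 2 preleukemic shrek libraries. In 39 members the change was more positive in otg than in shrek, and in none more negative, against 9.31% and 7.08% of all genes. They were all 10 alpha subunits, all 7 beta subunits, all 7 ATPases, 8 of 14 non-ATPase subunits, 4 chaperones, 2 of the caps and inhibitors, and PSME3IP1. PSMB6 showed the largest difference, 3.09 on the log2 scale (SE 0.695, adjusted p = 0.00422). The count was 8 without preleukemic shrek library 001, 24 without library 002 and 5 with library size alone.

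In hulk no member passed between preleukemic thymocytes and tumours, where 0.0825% of all genes rose and 0.124% fell. There were 16 members at an unadjusted p under 0.05 and 1 by DESeq2. PSMC1 came nearest, at 30.3 to 40.9 CPM before and 46.5 to 208 CPM in tumours (log2 fold change 1.34, SE 0.362, adjusted p = 0.0815). All 9 tumours lay above the preleukemic libraries, but the gene was picked by its p, so the lack of overlap adds no support.

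**Figure D3:**
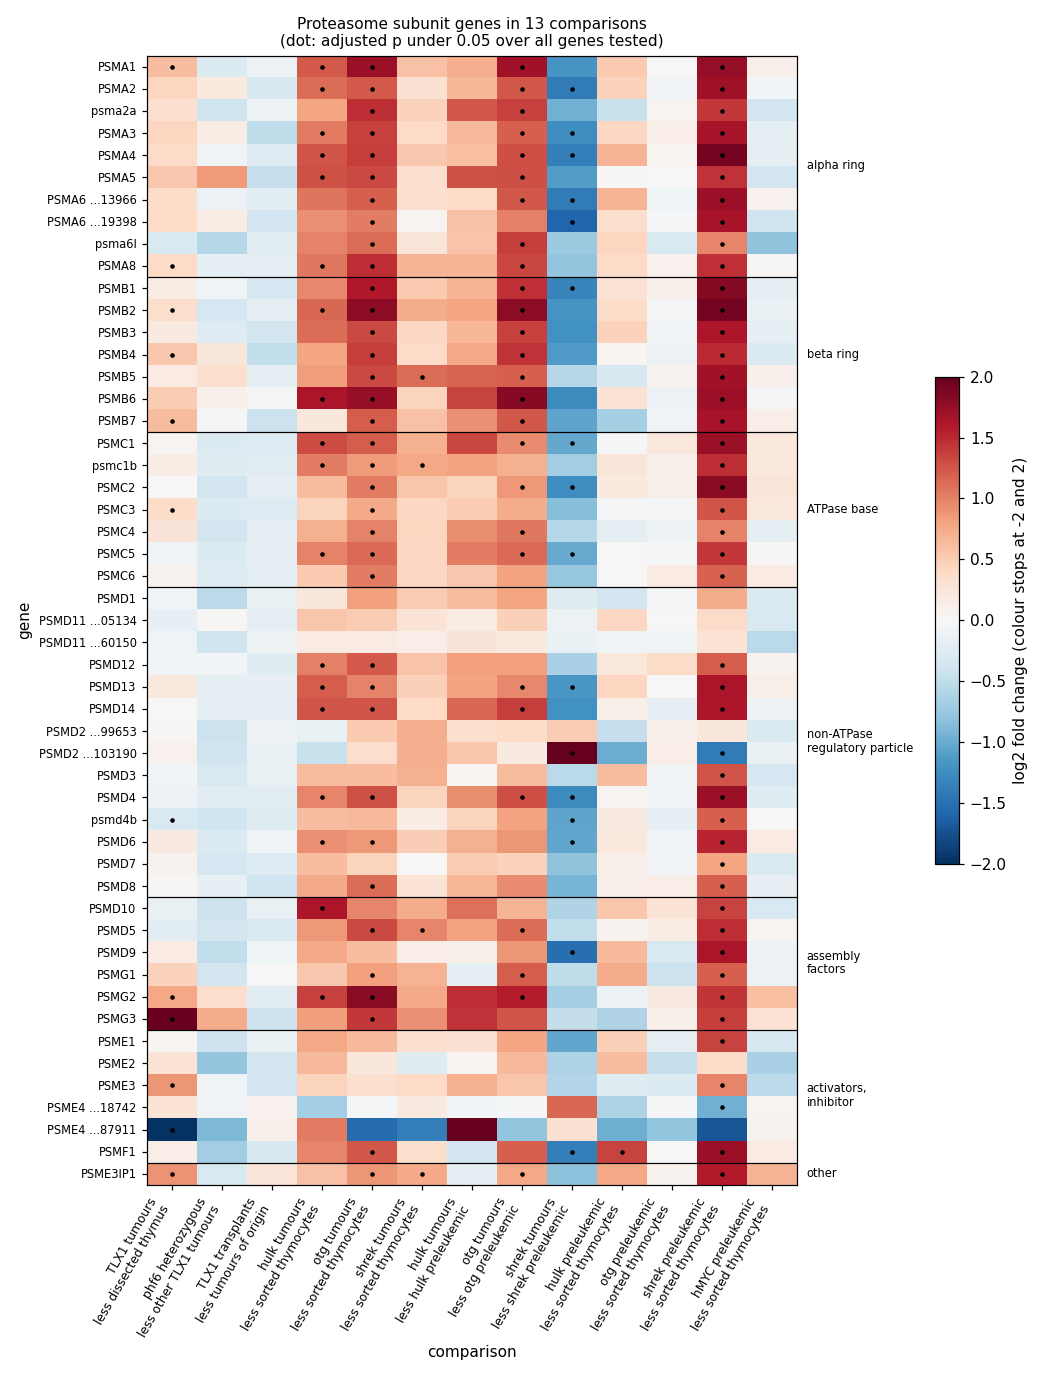
Log2 fold change (colour, stopping at -2 and 2) of the 51 members (rows, grouped by role) in 13 comparisons (columns); a dot marks an adjusted p under 0.05 over all genes tested. Dots fill most rows for preleukemic shrek thymocytes (45 members) and otg tumours (36), and the column of shrek tumours against preleukemic shrek is mostly blue, with 15 members that fell.

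Between the tumours of hulk, otg and shrek, 30 of 51 members differed by an F test over the lines, against 53.7% of all genes, so the members' share was near that of the whole table. The smallest adjusted p belonged to PSME4 ENSDARG00000087911 (0.000835), which lay at 0.393 to 16.6 CPM in hulk, 0 to 2.06 CPM in otg and 0.0525 to 1.8 CPM in shrek. The other PSME4 model was lower in hulk, with medians of 46.7, 85.8 and 85.3 CPM in hulk, otg and shrek (adjusted p = 0.0152). PSMB6 had medians of 88.9, 93.4 and 59.9 CPM in the same order (adjusted p = 0.00307). PSMB5 did not pass, with medians of 68.5, 67.4 and 70.9 CPM (adjusted p = 0.235). The count was 5 with library size alone and 13 with the tumours fitted alone.

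The TLX1 model was compared with dissected thymus, over the 6 primary tumours together. With TMM scaling, 10 members rose and 2 fell, against 20.2% and 35.8% of all genes. The share that rose was near that of all genes, and the share that fell was below it. The median log2 fold change was 0.16 for the members and -0.19 for all genes. PSMG3, a chaperone of the alpha ring, rose most. It measured 140 and 74 CPM in TLX1 tumours and 107, 287, 143 and 179 CPM in phf6 heterozygous tumours, all above the thymus range of 31.8 to 40.4 CPM. Its log2 fold change was 1.98 (SE 0.243, adjusted p = 3.15e-05). PSME3 measured 68.4 and 69 CPM in TLX1 tumours and 64.6, 71.8, 58.1 and 68.2 CPM in phf6 heterozygous tumours, against 31.2 to 44.6 CPM in thymus, and rose by 0.89 (SE 0.14, adjusted p = 0.000176). PSME3IP1, its binding partner, rose by 0.90 (SE 0.178, adjusted p = 0.00089). PSMG2 rose by 0.77 (adjusted p = 0.0395), PSMB7 by 0.63 (adjusted p = 0.00576) and PSMA1 by 0.62 (adjusted p = 0.0145). The members that fell were psmd4b, by 0.31 (adjusted p = 0.0474), and the scarce PSME4 ENSDARG00000087911, from a mean of 1.63 to 0.38 CPM (by 1.98, SE 0.532, adjusted p = 0.0067). PSMB5, PSMB6, PSMD14, PSME1, PSME2 and PSMF1 did not pass, with log2 fold changes between -0.01 and 0.51.

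These directions depend on the scaling. With library size alone 48 members fell and 1 rose, with a median of -1.12 for the members and -1.45 for all genes. Library sizes without ribosomal protein and mitochondrial genes gave 28 lower and 1 higher, with medians of -0.51 and -0.82. PSME3 then moved to -0.39 and PSMG2 to -0.56 with library size alone, PSMA1 to -0.67 and -0.050, and PSMB7 to -0.66 and -0.045 under the 2 scalings, while PSMG3 still rose, by 0.66 and 1.30. The members' median lay above that of all genes under each of the 3 scalings. TMM factors ran from 1.77 to 2.07 in thymus and from 0.531 to 1.03 in the primary tumours. Thymus also held skeletal muscle markers at 1080 to 2010 CPM and skin markers at 1520 to 2080 CPM in sum, against at most 75.8 and 265 CPM in the primary tumours. Their part in the result was not tested. The count of called members was 6 without thymus library 10 or 11, 7 without thymus library 7 or 8, phf6 heterozygous tumour 4 or TLX1 tumour 1, and 21 without phf6 heterozygous tumour 1.

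**Figure D4:**
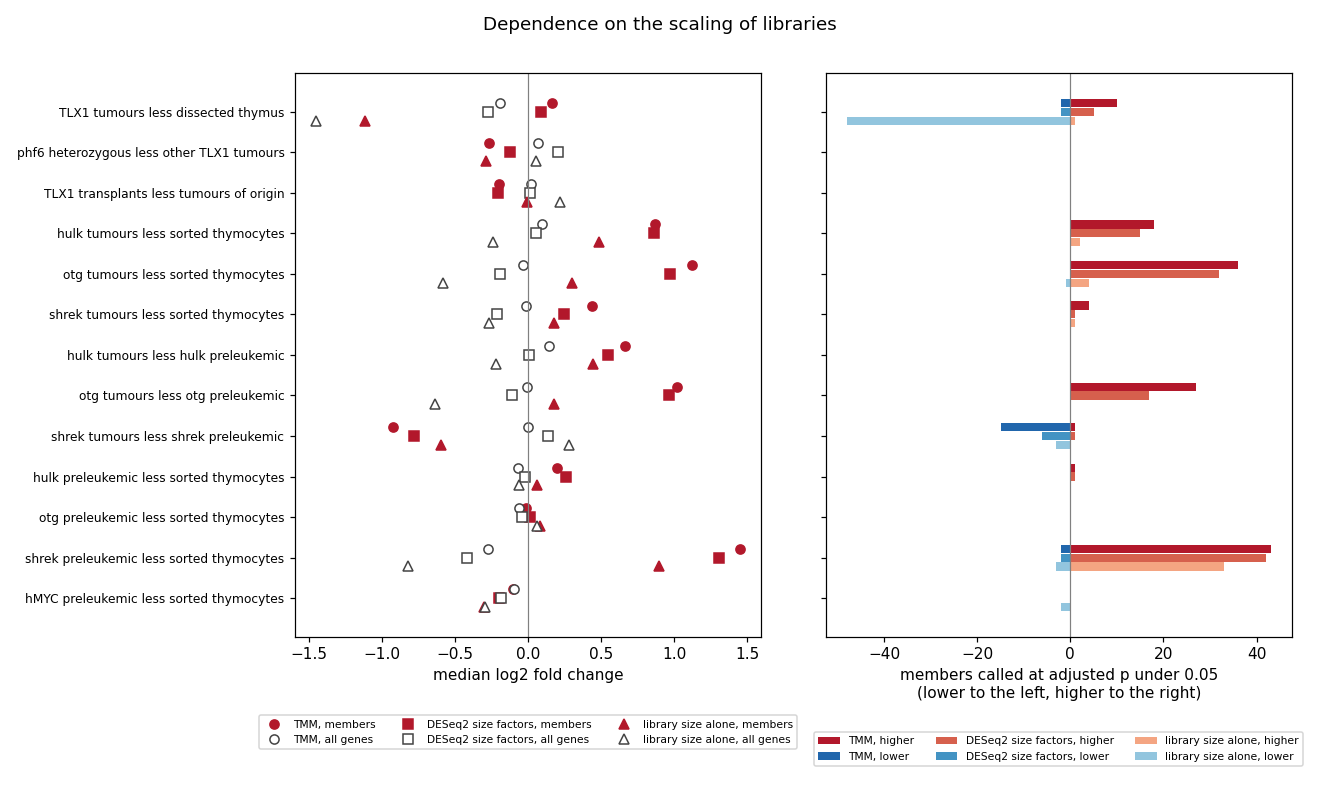
Median log2 fold change of the members (filled) and of all genes tested (open) in 13 comparisons under TMM, DESeq2 size factors and library size alone (left panel), with the number of members called lower (leftward bars) and higher (rightward bars) under each (right panel). In TLX1 tumours against thymus the members' median is 0.16 with TMM and -1.12 with library size alone, while in preleukemic shrek thymocytes it is 1.45 and 0.89.

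No member passed between phf6 heterozygous and other TLX1 tumours, where 0.0225% of all genes rose and 0.018% fell. At an unadjusted p under 0.05 there were 3, and DESeq2 called 1, lower. PSMF1 had the smallest p, at 12.1, 12.6, 15 and 14.3 CPM in heterozygous tumours and 21.2 and 22.4 CPM in the others (log2 fold change -0.69, SE 0.192, adjusted p = 0.189). The groups did not overlap in this gene, but it was picked by that p, so the lack of overlap adds no support. PSME2 measured a mean of 103 CPM against 176 CPM (-0.77, adjusted p = 0.266). None passed between transplants and their 4 tumours of origin either, where 0.00645% of all genes rose and 0.116% fell, nor without adjustment, nor by DESeq2. The median log2 fold change of the members was -0.20, and 4 of 51 were above 0. Over all genes tested the median was 0.02, and 8054 of 15504 were above 0.

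The remaining genes of the pathway were described by lists. All list results come from the main fits with TMM scaling. The lists were not refitted under other scalings or with libraries left out. Whether their directions in TLX1 tumours against thymus depend on the scaling, as those of the members do, was not tested. Of 7 immune and thymus forms, PSMB8, PSMB9, PSMB10, psmb12 and psmb13a, all beta subunits of the immune form or related to it, rose in preleukemic shrek, by 1.31 to 1.52. The same genes rose in otg tumours by 1.29 to 1.78 against healthy thymocytes. The thymic epithelial forms PSMB11 and psmb11b fell in otg tumours against healthy thymocytes, where PSMB11 was at 0 in every tumour. Over all genes, 17.3% rose in preleukemic shrek, and 12.8% rose and 15.1% fell in otg tumours. In TLX1 tumours against thymus 4 of the 7 rose and 2 fell, against 20.2% and 35.8% of all genes, psmb12 by 1.38 and PSMB9 by 0.93 among those that rose.

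Of 12 other subunits, assembly and bound factors, 6 rose and 2 fell in preleukemic shrek, against 17.3% and 20.7% of all genes, the share that fell being near the background. POMP, which brings the immature core to maturity, rose by 2.43 (SE 0.373, adjusted p = 0.000342), and SEM1, a small subunit, by 1.89 (SE 0.366, adjusted p = 0.0012). The ubiquitin receptor ADRM1 rose by 1.41 and the deubiquitinase UCHL5 by 1.42. From preleukemic to tumour in shrek, POMP fell by 1.93 and SEM1 by 1.75 (adjusted p = 0.0101 and 0.00606). In otg tumours against healthy thymocytes 4 of the 12 rose and 2 fell, against 12.8% and 15.1% of all genes, with POMP at 1.38 and ADRM1 at 1.17.

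Of 13 tested regulators of proteasome genes, 7 fell and 1 rose in preleukemic shrek, where 20.7% of all genes fell and 17.3% rose. NFE2L1, the transcription factor known in mammals for raising proteasome genes when the complex is blocked, fell by 3.47 (SE 0.739, adjusted p = 0.00216), STAT3 by 3.69 (SE 0.569, adjusted p = 0.000357) and hsf1 by 2.48 (adjusted p = 0.00102). NGLY1, the enzyme known to process NFE2L1, was the 1 that rose, by 0.57 (adjusted p = 0.0341). From preleukemic to tumour in shrek 2 of the 13 rose and 1 fell, against 6.12% and 9.25% of all genes. STAT3 and hsf1 rose, by 2.84 and 2.82. In tumours against healthy thymocytes 4 regulators fell in hulk, 4 in otg and 5 in shrek, and none rose. These counts stand against 5.19%, 15.1% and 21.7% of all genes lower in hulk, otg and shrek. Higher were 8.47%, 12.8% and 8.53% of all genes in the same order. At such shares few of 13 genes would be higher, so the absence of any is near the background. NFE2L2, a relative that answers oxidative stress, fell by 2.50 in otg (adjusted p = 5.19e-06). In TLX1 tumours against thymus 1 of the 13 regulators rose and 3 fell, against 20.2% and 35.8% of all genes. Both shares were below those of all genes. NFE2L1 and NFE2L2 fell, by 0.60 and 1.28, and nfe2l3 rose by 1.28.

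Of 10 ubiquitin and activating-enzyme genes, 5 rose and 2 fell in preleukemic shrek, against 17.3% and 20.7% of all genes, again with the share that fell near the background. The gene rps27a, which encodes ubiquitin fused to a ribosomal protein, rose by 1.46 (adjusted p = 0.0207), whereas the polyubiquitin gene ubb fell by 2.48 (adjusted p = 0.000536). Between TLX1 tumours and thymus 5 of the 10 rose and 1 fell, against 20.2% and 35.8% of all genes. The largest changes each way were those of rps27a, which rose by 2.56, and ubb, which fell by 2.55. Of 17 genes that deliver substrates to the proteasome, 6 rose and none fell in preleukemic shrek, against 17.3% and 20.7% of all genes, among them UBXN1, by 1.67, and the shuttle RAD23B, by 0.79. In TLX1 tumours 3 of the 17 rose and 1 fell, against 20.2% and 35.8% of all genes, so the count that rose was near the background.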

How the data were processed

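Whole-number read counts per gene were deposited by the authors in 3 tables, 1 for the Speleman laboratory, 1 for the Frazer tumours and preleukemic thymocytes and 1 for the healthy sorted thymocytes. STAR and GRCz10 are named in the submitters' processing notes, with no version, and libraries were Truseq stranded mRNA, per the labels' protocols. The counting tool, annotation and strand setting are not given in the sources used here. Rows that name no gene, 17.9% to 52.6% of Frazer counts, were left out. A total of 9 columns that match no labelled sample were not used. Of 35117 gene IDs, 27000 had a symbol. Stored sequences and coordinates were not used here.

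The members, the accompanying lists and the tests were chosen with earlier results of these data known. Genes named are up to 5 members each way with the largest change among those past the threshold, members called in the most comparisons, the cutting subunits, PSMD14, the PSME genes, PSMF1, paralogue pairs, and up to 4 genes per list with the smallest adjusted p. For genes picked by their change or calls, counts of libraries beyond another group's range add no support. Of 81 list names 56 matched a gene, and of 147 marker names 108.

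Counts were fitted with edgeR 4.0.16 in R 4.3.3: filterByExpr (minimum count 10, minimum total 15), TMM factors, robust quasi-likelihood fits and the quasi-likelihood F test, Benjamini-Hochberg adjusted over all genes tested, called at 0.05. The SE is the absolute log2 fold change over the square root of F. Fits covered 12 libraries (thymus and primary TLX1 tumours), 4 tumours with their transplants summed and paired by origin, all 46 Frazer libraries, and the 17 healthy and preleukemic ones. For CPM, TMM factors were taken over the 24 Speleman and the 46 Frazer libraries apart, so CPM levels and fitted fold changes can differ slightly. The code was tested on simulated data. Alternatives were DESeq2 1.42.0 and its size factors, library size alone, no filter, only the compared groups, the replicate number as a block, leaving out libraries above 20% mitochondrial reads, and leaving out each library in turn. After the data were seen, 2 contrasts (otg less shrek in the change to tumour, and shrek less otg preleukemic) and scalings without ribosomal protein and mitochondrial genes were added. Single-gene p-values come from these fits across all genes.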

Additional observations from a re-analysis of the deposited data

Results flagged for a closer look

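Values far from the rest of their group were looked for in 135 groups of libraries with Dixon's test, which flags about 1 group in 20 by chance, and 22 were found. They gathered in few libraries. TLX1 transplant 1-1 was flagged in 8 genes: it was high in PSMB2 (185 CPM), PSMB6 (197 CPM), PSMC1 (132 CPM), PSMD14 (135 CPM), PSMG2 (222 CPM) and PSMF1 (23.8 CPM), and low in PSMD2 ENSDARG00000099653 (36.6 CPM) and PSME4 ENSDARG00000018742 (30.2 CPM). The nearest other TLX1 transplant stood at 128 CPM for PSMB2 and 65.4 CPM for that PSME4 model. Transplant 1-1 had the lowest TMM factor of the Speleman libraries, 0.435, and 58.3% of its reads in ribosomal protein genes. A low factor raises every CPM of a library. Before that scaling, the members took 0.344% of its reads, within the 0.329% to 0.403% of the TLX1 transplants. Tumour otg 8 was high in PSMA1 (1080 CPM, nearest other 498 CPM), PSMB6 (456 CPM), PSMG2 (413 CPM) and PSMG3 (282 CPM), and otg 7 in PSMF1 (98 CPM). Hulk tumour 1 was high in PSMB2 (335 CPM, nearest other 138 CPM) and PSMC1 (208 CPM), and hulk tumour 7 in PSMG2 (314 CPM, nearest other 88.2 CPM). Tumours otg 8 and hulk 7 had the lowest TMM factors of the Frazer libraries, 0.319 and 0.493. The part of the scaling in these flags was not tested. Among shrek tumours, 002 was high in PSMB5 (175 CPM) and 006 in PSMB7 (105 CPM). Healthy thymus library 8 was low in PSMB6 (53.7 CPM) and PSMD14 (62.4 CPM), and thymocyte library 2 was high in PSMF1 (20.6 CPM). Preleukemic otg library 2 had 0.438% of its reads in the 51 genes, the nearest other 0.351%.

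Other results were differences between groups. The change from preleukemic to tumour was more positive in otg than in shrek in 39 members, against 9.31% of all genes, and in none more negative, against 7.08%. The count was 8 without preleukemic shrek library 001 and 24 without library 002. The members with the largest differences had log2 differences of 3.088 for PSMB6, 2.971 for PSMB2, 2.862 for PSMA1, 2.776 for PSMB1 and 2.654 for PSMA4. Tumours of the 3 lines differed among each other in 30 of 51 members, near the share over all genes, 53.7%.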

How the results depend on the processing

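Counts of called members by setting were as follows. With library size alone they were 49 (1 higher, 48 lower) for TLX1 tumours against thymus, 2 for hulk, 5 for otg and 1 for shrek tumours against thymocytes, 0 for otg and 3 for shrek tumours against preleukemic, 5 among the lines, 0 for preleukemic hulk, 2 for hMYC, 5 for the otg and shrek difference and 29 for shrek against otg preleukemic. Leaving ribosomal and mitochondrial genes out of library sizes gave 29 (1 higher, 28 lower) for TLX1. DESeq2 size factors gave 7 for TLX1, 1 for shrek tumours against thymocytes, and 17 and 7 for otg and shrek against preleukemic. Without the filter these last were 17 and 9. DESeq2's test gave 1 for phf6, 2 for shrek against thymocytes, 1 and 8 for hulk and shrek against preleukemic, and 2 each for preleukemic hulk and hMYC. Fitting the compared groups alone gave 30, 4 and 10 for hulk, otg and shrek against thymocytes, 0 and 34 for otg and shrek against preleukemic, 13 among the lines, and 0 and 2 for preleukemic hulk and hMYC. Without the 3 libraries above 20% mitochondrial reads the count was 3 for hulk tumours against thymocytes. The fit of healthy and preleukemic libraries holds only 1 of these, thymocyte library 3. Its counts of 4 and 1 for preleukemic hulk and hMYC are those of leaving out that library, not a separate check. Leaving out 1 library gave ranges of 6 to 21 (TLX1), 7 to 22 (hulk), 29 to 39 (otg) and 2 to 6 (shrek) against healthy tissue, 2 to 35 and 0 to 18 for otg and shrek against preleukemic, 22 to 36 among the lines, 0 to 24, 36 to 46 and 0 to 1 for preleukemic hulk, shrek and hMYC, 8 to 40 for the otg and shrek difference and 32 to 44 for shrek against otg preleukemic.

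With the replicate number as a block, otg tumours against preleukemic had 2 called members, shrek tumours against preleukemic 6 and preleukemic hulk 0; the other blocked counts stayed within 1.5 times. Deviations of same-numbered libraries correlated at -0.336 to 0.312. Against thymocytes, 4 of 6 libraries correlated best with their own number for preleukemic hulk and 3 of 6 for hMYC. Among the tumour lines 7 of 54 did. Comparisons sharing only 2 numbers were not checked in this way. The numbers were not taken to pair libraries, though partial pairing could have gone unseen.

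In TLX1 tumours against thymus, library size alone gave PSMA1 -0.67, PSMA8 -0.89, PSMB2 -0.92, PSMB7 -0.66, PSMG2 -0.56, PSME3 -0.39 and PSME3IP1 -0.36. Without ribosomal and mitochondrial genes in library size PSMA1 was -0.050, PSMA8 -0.27, PSMB2 -0.31 and PSMB7 -0.045. The cause was not tested. Over 193 gene results, 907 of 1240 values under other settings kept direction and side of the threshold, 322 missed it and 11 reversed; leaving out 1 library, 2141 of 2515 kept both and 374 missed the threshold.

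Without mitochondrial and ribosomal protein reads, the members' mean share was 1.02% in thymus, 0.803% in TLX1 tumours, 0.779% in phf6 heterozygous tumours, 0.706% and 0.591% in their transplants, 0.426% in thymocytes, 0.358%, 0.493%, 0.437% and 0.833% in preleukemic hMYC, hulk, otg and shrek, and 0.756%, 0.629% and 0.519% in hulk, otg and shrek tumours. The preleukemic shrek and TLX1 groups held 2 libraries each, which limits the precision of their values.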
